A study of Mus musculus with 8 samples.

Results

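Antibody transcripts were followed in the livers of 8-month-old mice through the immunoglobulin heavy and light chain segments. The members were the rows of the gene table whose name starts with Ighv, Ighg, Igkv, Igkc, Iglv or Iglc, or is Igha, Ighm, Ighd or Ighe, and which had a value above 0 in any of the 8 libraries. Of 229 rows with such a name, 221 met this, out of 37583 genes in the table. They were 108 heavy chain variable (Ighv) segments, 102 kappa variable (Igkv) segments, 3 lambda variable (Iglv) segments and 8 constant region rows, namely Ighm, Ighg1, Ighg2b, Ighg2c, Ighg3, Igkc, Iglc2 and Iglc3. No member is named Igha or Ighd, so IgA and IgD are not analysed here, and both rows named Ighe were at 0 in all libraries. On the mm9 build, 113 members lie on chromosome 12, 103 on chromosome 6 and 5 on chromosome 16.

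In the 4 libraries of the PR-SET7_LOBE group the genotype was PR-SET7_LX_ALB_CRE, in which the histone H4 methyltransferase Pr-Set7 is inactivated in hepatocytes by a Cre recombinase under the albumin promoter. The labels do not say what LOBE means. The 2 libraries of the DEN_WT group were of wild-type mice that received diethylnitrosamine (DEN), a liver carcinogen, into the peritoneum at 15 days of age, at a dose labelled 25 ml per kg with no concentration. The 2 WT libraries were of wild-type livers. All mice were C57BL6/CBA, and the labels do not say that the libraries of a group stem from different animals: p-values here reflect only how these libraries spread, and that spread may be technical.

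Values are normalised counts as the authors deposited them, with totals from 7305595 to 16108081 per library. They are read counts multiplied by a factor per library, and the factors found from the values place the libraries between 5295141 and 27979148 reads, with both DEN_WT libraries deepest. DEN_WT held 27979148 and 26061122 reads and the other libraries at most 11870257, so DEN_WT differed in depth as well as in treatment. Treatment, depth and any library batch cannot be told apart in comparisons with DEN_WT. In both DEN_WT libraries 1 read rounds to a value of 0, so a gene needs 2 reads there to be seen, whereas 1 read is visible in the other 6. The row of the targeted gene, Setd8 (the symbol of Pr-Set7), held 667, 600, 516 and 510 normalised counts in the libraries labelled PR-SET7_LOBE, 452 and 485 in DEN_WT and 542 and 607 in WT, and did not pass the test in PR-SET7_LOBE over WT (log2 fold change -0.01 ± 0.30, SE; limma adjusted p = 0.992). The row counts the whole gene and the labels do not give the deleted exons, so it does not check the genotype, and PR-SET7_LOBE is used below as the label of those libraries.

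An antibody is built from 2 heavy and 2 light chains. In each B cell, 1 Ighv segment is joined to a D and a J segment and 1 Igkv or Iglv segment to a J segment, and the joined exon is spliced to a constant region. A B cell first makes IgM from Ighm, and after class switching the same variable exon is expressed with an IgG constant region such as Ighg1, Ighg2b, Ighg2c or Ighg3. Plasma cells, the secreting end stage, carry far more immunoglobulin mRNA than resting B cells, whereas hepatocytes are known for taking up and transporting antibody rather than making it. C57BL/6 mice carry Ighg2c where several other strains carry Ighg2a, and the reads of these crossed mice were aligned to the mm9 reference, which is of C57BL/6. How alleles of the other parent affect the values was not tested.

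The 4 IgG subclasses differ most in their hinge, the flexible stretch between the Fab arms and the Fc stem. The hinge exons are shown because the isotype results below rest on reads that tell these rows apart. They were read from GENCODE M21 transcripts (GRCm38), all lie on the minus strand of chromosome 12 and are written 5′ to 3′, with in-frame cysteine codons in capitals.
Ighg1: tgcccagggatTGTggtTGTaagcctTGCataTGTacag
Ighg2b: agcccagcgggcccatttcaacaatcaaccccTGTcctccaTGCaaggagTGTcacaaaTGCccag
Ighg2c: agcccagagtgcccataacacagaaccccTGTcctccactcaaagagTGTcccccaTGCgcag
Ighg3: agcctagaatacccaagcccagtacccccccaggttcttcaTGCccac
The exons are 39, 66, 63 and 48 bases long in Ighg1, Ighg2b, Ighg2c and Ighg3 and hold 4, 4, 3 and 1 cysteine codons. Cysteines of the hinge form bridges between the chains. Over the first 3 constant exons Ighg2b and Ighg2c were the closest pair, with 89.9% identical bases, and Ighg1 and Ighg3 the most distant IgG pair with 75.1%. Windows of 50 bases found in another immunoglobulin gene made up 6.01% of the Ighg2c transcript, 4.33% of Ighg2b, 1.65% of Ighg3, 0.41% of Ighg1 and none of Ighm or Igkc. The Ighg2c row also spans the membrane exons (3606 bases, against 1545 to 1864 for the other heavy constant rows), which is the same in every library.

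Immunoglobulin transcripts as a whole were more abundant in PR-SET7_LOBE livers than in either other group. The 221 members summed to 2775, 4605, 5823 and 2450 normalised counts in PR-SET7_LOBE, 932 and 1184 in DEN_WT and 999 and 681 in WT. Every PR-SET7_LOBE library lay above all DEN_WT and WT libraries, and the ranges of DEN_WT and WT overlapped on this scale. The sum averaged 3913 ± 1588 (SD, n = 4) in PR-SET7_LOBE, 1058 ± 178 (SD, n = 2) in DEN_WT and 840 ± 225 (SD, n = 2) in WT. In estimated CPM (reads scaled to the depth of each library), the sums were 228 to 799 in PR-SET7_LOBE, 92.8 and 109 in DEN_WT and 72.9 and 43.7 in WT, and on that scale DEN_WT and WT did not overlap. In bulk liver RNA, more antibody-making cells and more antibody mRNA per cell cannot be told apart.

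Single genes were tested with limma on log2(value + 2), fitted to all genes with a value of 10 or more in at least 2 libraries, with Benjamini-Hochberg adjustment over the 17011 genes tested and a threshold of 0.05. A log2 fold change on this scale understates the change of low genes. Only 35 of the 221 members passed the filter, most of them through the group in which they were high, so the counts over these 35 describe them and carry no more. In PR-SET7_LOBE against WT 3 members rose and none fell, where 0.594% of all genes tested rose and 0.182% fell. In DEN_WT against WT limma called no member, where 8.44% of all genes rose and 4.84% fell; 3 members had an unadjusted p under 0.05, and DESeq2 called 1 member, edgeR 0 and limma voom 0, where they called 19.8%, 12.0% and 37.0% of all genes. In PR-SET7_LOBE against DEN_WT 4 members rose and none fell, where 5.26% of all genes rose and 7.75% fell. Without the filter, the fit took in all 221 members. The log2 fold change of PR-SET7_LOBE over WT was then above 0 in 189 of them, with a median of 0.75 beside 0.23 over all genes, and 4 members passed, all of them higher, where 0.662% of all genes passed in either direction. For PR-SET7_LOBE over DEN_WT it was above 0 in 182, with a median of 0.50 beside 0.16, and 5 passed, all higher, where 7.17% of all genes passed. For DEN_WT over WT it was above 0 in 152, with a median of 0.08 beside 0.00, and none passed, where 7.35% of all genes did; 8 members had an unadjusted p under 0.05.

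**Figure D1:**
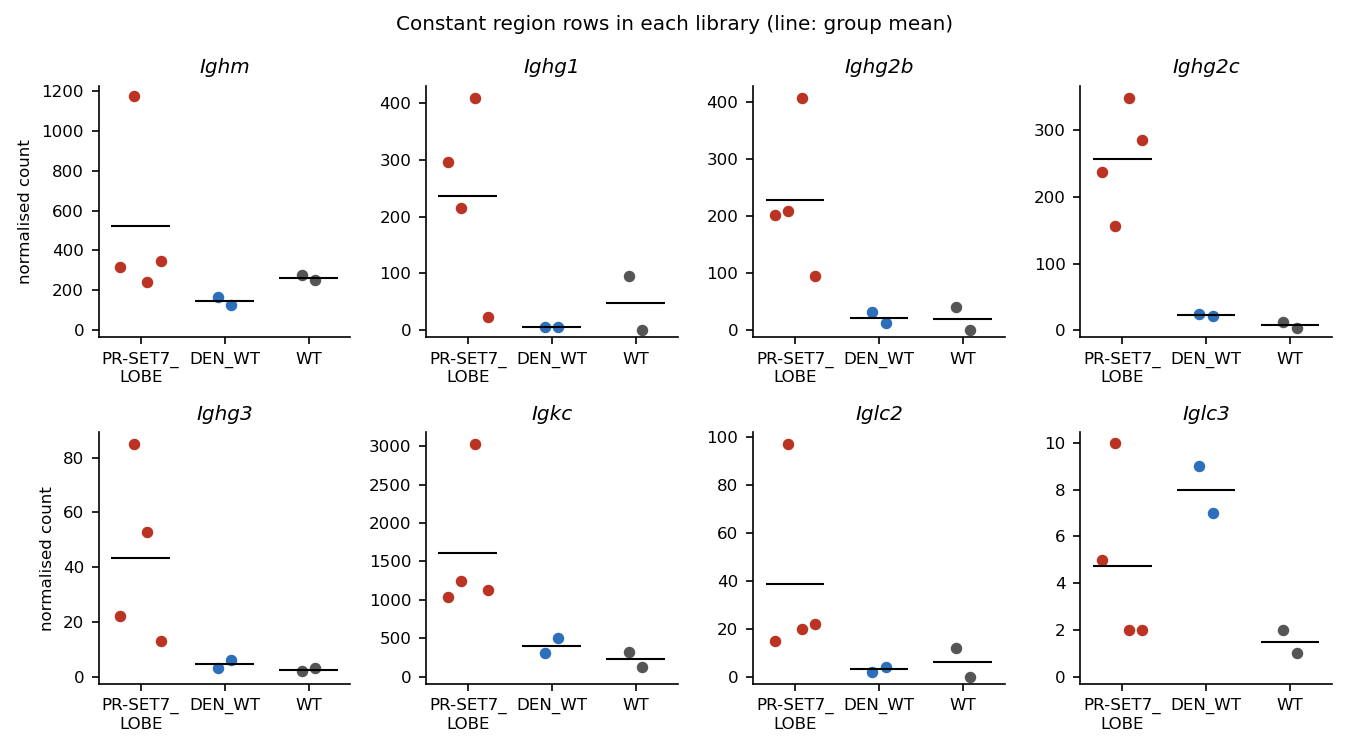
Normalised counts of the 8 constant region rows (vertical axes, 1 scale per gene) in the libraries of PR-SET7_LOBE, DEN_WT and WT, with 1 point per library and a line at the group mean. Ighg2c and Igkc are higher in all 4 PR-SET7_LOBE libraries than in any other library, while Ighm stands out in PR-SET7_LOBE replicate 2 at 1173.

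Among the heavy chain constant regions, Ighg2c, the IgG2c constant region (chr12:114523536-114527141, minus strand), separated the groups most clearly. It held 238, 156, 349 and 286 normalised counts in PR-SET7_LOBE, 25 and 21 in DEN_WT and 12 and 4 in WT. The lowest PR-SET7_LOBE library lay above every DEN_WT and WT library. Its log2 fold change was 4.76 ± 0.49 (SE) in PR-SET7_LOBE over WT (limma adjusted p = 0.00332) and 3.32 ± 0.49 in PR-SET7_LOBE over DEN_WT (limma adjusted p = 0.00172). In DEN_WT over WT it was 1.44 ± 0.57 and did not pass (limma adjusted p = 0.120). Without WT replicate 2 the first call was lost (limma adjusted p = 0.0735).

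The other 3 IgG rows were also high in PR-SET7_LOBE but varied more among its libraries. Ighg2b, the IgG2b constant region, held 202, 209, 407 and 94 normalised counts in PR-SET7_LOBE, 31 and 13 in DEN_WT and 40 and 0 in WT. All 4 PR-SET7_LOBE values lay above the rest, yet it did not pass in the filtered fit against WT (log2 fold change 4.47 ± 1.02, SE; limma adjusted p = 0.0849) or against DEN_WT (3.19 ± 1.02; limma adjusted p = 0.0676). It passed in both contrasts in the fit without a filter, with limma adjusted p = 0.0339 against WT and 0.0430 against DEN_WT. Ighg3, the IgG3 constant region, held 22, 85, 53 and 13 normalised counts in PR-SET7_LOBE, 3 and 6 in DEN_WT and 2 and 3 in WT. It rose in PR-SET7_LOBE over DEN_WT, by 2.52 ± 0.73 (SE) on the log2 scale (limma adjusted p = 0.0476). This call was lost without PR-SET7_LOBE replicate 2 (0.0930) or 3 (0.0891), DEN_WT replicate 1 (0.365) or 2 (0.251), or WT replicate 1 (0.0684) or 2 (0.0690). Against WT, where only 3 reads were estimated in all, the ratio of estimated CPM was 33.9 with a 95% counting interval of 11.4 to 166, and the limma adjusted p was 0.100. Ighg1, the IgG1 constant region, held 297, 216, 410 and 24 normalised counts in PR-SET7_LOBE, 6 and 5 in DEN_WT and 95 and 0 in WT. Here the groups overlapped, since PR-SET7_LOBE replicate 4 lay below WT replicate 1, and neither contrast passed (limma adjusted p = 0.254 against WT and 0.0659 against DEN_WT).

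The IgM constant region passed in no contrast. Ighm, the constant region of the first antibody class a B cell makes, held 319, 1173, 243 and 346 normalised counts in PR-SET7_LOBE, 166 and 124 in DEN_WT and 275 and 250 in WT. PR-SET7_LOBE replicate 2 was high and the other 3 lay close to the WT libraries, 1 of them below both. In estimated CPM, Ighm lay at 26.2 to 116 in PR-SET7_LOBE, above 16.4 and 11.5 in DEN_WT and 20.0 and 15.5 in WT. The log2 fold change was 0.68 ± 0.55 (SE) in PR-SET7_LOBE over WT (limma adjusted p = 0.535), 1.54 ± 0.55 in PR-SET7_LOBE over DEN_WT (limma adjusted p = 0.0985) and -0.86 ± 0.64 in DEN_WT over WT (limma adjusted p = 0.387).

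The isotype composition was read as the share of each row in the summed heavy constant counts of a library, given as a description with no test. IgG made up 70.4%, 36.2%, 83.4% and 54.7% of these counts in PR-SET7_LOBE, 28.1% and 26.6% in DEN_WT and 35.1% and 2.72% in WT. The PR-SET7_LOBE shares all lay above the others, although replicate 2 exceeded WT replicate 1 by little. Exact Clopper-Pearson 95% intervals on the estimated reads were 34.2% to 38.3% for PR-SET7_LOBE replicate 2 and 28.8% to 42.1% for WT replicate 1, so these 2 libraries were not separated beyond counting error. Such intervals cover counting error only, because amplified reads carry no molecular identifier and can be copies of 1 molecule. The means were 61.2% ± 20.4 (SD, n = 4) in PR-SET7_LOBE, 27.4% ± 1.07 (SD, n = 2) in DEN_WT and 18.9% ± 22.9 (SD, n = 2) in WT. The ratio of IgG to Ighm counts was 2.38, 0.568, 5.02 and 1.21 in PR-SET7_LOBE, 0.392 and 0.363 in DEN_WT and 0.542 and 0.028 in WT. The 2 WT libraries thus lay far apart, and no single IgG share describes that group.

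**Figure D2:**
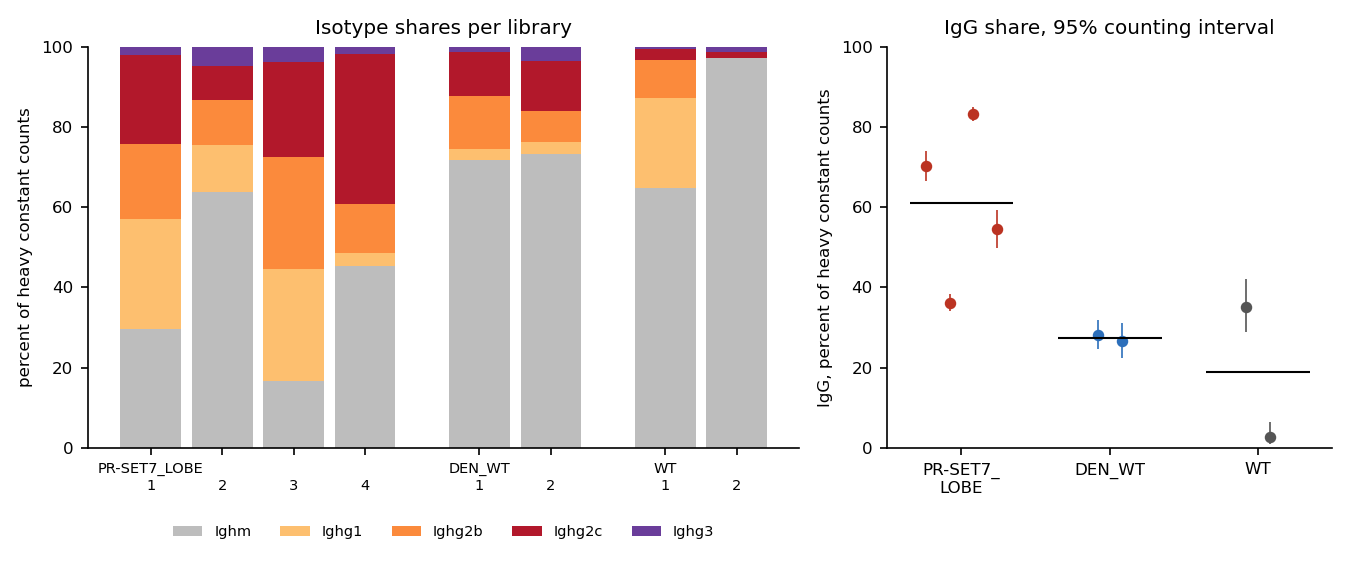
Left, share of the 5 heavy constant rows in the summed heavy constant counts (percent) of each library, numbered by replicate. Right, the IgG share with its 95% counting interval and a line at the group mean: PR-SET7_LOBE spans 36.2% to 83.4%, DEN_WT lies at 28.1% and 26.6%, and WT at 35.1% and 2.72%.

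Within IgG, no subclass led in every library. Ighg2c made up 31.4%, 23.4%, 28.6% and 68.6% of the IgG counts in PR-SET7_LOBE, 38.5% and 46.7% in DEN_WT and 8.05% and 57.1% in WT, where the last value rests on 5 IgG reads. Ighg1 made up 39.1%, 32.4%, 33.6% and 5.76% in PR-SET7_LOBE, 9.23% and 11.1% in DEN_WT and 63.8% and 0% in WT. PR-SET7_LOBE replicate 4 was therefore mostly IgG2c, with little IgG1, while Ighg1, Ighg2b and Ighg2c each made up between 23.4% and 39.1% in replicates 1 to 3. WT replicate 1 was mostly IgG1. Ighg2b ranged from 22.5% to 33.4% in PR-SET7_LOBE, and was 47.7% and 28.9% in DEN_WT and 26.8% and 0% in WT.

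The kappa light chain rose in PR-SET7_LOBE over both other groups. Igkc, the only kappa constant region (chr6:70676429-70676751, plus strand), held 1037, 1250, 3034 and 1135 normalised counts in PR-SET7_LOBE, 310 and 498 in DEN_WT and 323 and 125 in WT. The PR-SET7_LOBE libraries lay above all others, with replicate 3 far above the rest of its group. The log2 fold change was 2.84 ± 0.52 (SE) in PR-SET7_LOBE over WT (limma adjusted p = 0.0428) and 1.88 ± 0.52 in PR-SET7_LOBE over DEN_WT (limma adjusted p = 0.0400). Both calls are close to the threshold. The first was lost without WT replicate 1 (limma adjusted p = 0.114), WT replicate 2 (0.473), or PR-SET7_LOBE replicate 2 (0.0993), 3 (0.0653) or 4 (0.0516), and the second without PR-SET7_LOBE replicate 2 (0.0696), 3 (0.0553) or 4 (0.0506) or either DEN_WT library (0.347 without replicate 1 and 0.164 without replicate 2). Per kilobase of coding exon, the ratio of Igkc to the summed heavy constant rows was 3.36, 2.58, 6.996 and 5.67 in PR-SET7_LOBE, 5.28 and 11.7 in DEN_WT and 2.86 and 2.05 in WT. On that scale kappa exceeded all measured heavy chains in each library. The 1214 bases taken for Ighg2c include its membrane exons. In counts the ratio was 0.962, 0.680, 2.075 and 1.488 in PR-SET7_LOBE, 1.342 and 2.947 in DEN_WT and 0.762 and 0.486 in WT, so the order depends on the scale.

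By their constant region rows, lambda chains were a small part of the light chain pool. No member is named Iglc1, so Iglc1 is not counted in it. Iglc2 and Iglc3, constant regions of lambda chains, together made up 1.89%, 7.89%, 0.72% and 2.07% of the constant light chain counts in PR-SET7_LOBE, 3.43% and 2.16% in DEN_WT and 4.15% and 0.794% in WT. The groups overlapped, and the high value of PR-SET7_LOBE replicate 2 came from Iglc2, which held 15, 97, 20 and 22 normalised counts in PR-SET7_LOBE, 2 and 4 in DEN_WT and 12 and 0 in WT. Iglc3 held 5, 10, 2 and 2 in PR-SET7_LOBE, 9 and 7 in DEN_WT and 2 and 1 in WT, and did not reach the filter on low values. Iglc2 did not pass in any contrast (limma adjusted p = 0.219 in PR-SET7_LOBE over WT, 0.954 in DEN_WT over WT and 0.0859 in PR-SET7_LOBE over DEN_WT). Iglv1, the variable segment used by most mouse lambda chains, held 37, 91, 30 and 7 normalised counts in PR-SET7_LOBE, 19 and 24 in DEN_WT and 0 and 3 in WT. PR-SET7_LOBE and DEN_WT overlapped and both lay above WT, where 2 reads were estimated in all; the ratio of estimated CPM in PR-SET7_LOBE over WT was 46.0 with a 95% counting interval of 12.6 to 383, and no contrast passed (limma adjusted p = 0.107 in PR-SET7_LOBE over WT and 0.0763 in DEN_WT over WT). Iglv2 and Iglv3 were at 0 in both WT libraries and reached 36 and 13 in PR-SET7_LOBE replicate 2. Of the summed Igkv and Iglv counts, Iglv segments made up 10.3%, 14.96%, 4.93% and 2.33% in PR-SET7_LOBE. They made up 10.2% and 9.22% in DEN_WT and 0% and 2.21% in WT.

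V segments also summed to more in PR-SET7_LOBE. Igkv segments summed to 357, 796, 868 and 294 normalised counts in PR-SET7_LOBE, 177 and 256 in DEN_WT and 122 and 133 in WT, without overlap between PR-SET7_LOBE and the others. Ighv segments summed to 242, 473, 392 and 227 in PR-SET7_LOBE, 183 and 224 in DEN_WT and 116 and 162 in WT, where PR-SET7_LOBE replicate 4 lay just above DEN_WT replicate 2. In estimated CPM the Ighv sums of PR-SET7_LOBE and DEN_WT overlapped, at 19.6 in PR-SET7_LOBE replicate 1 and 20.6 in DEN_WT replicate 2. The heavy constant counts were 4.46, 3.89, 3.73 and 3.36 times the Ighv counts in PR-SET7_LOBE, 1.26 and 0.755 times in DEN_WT and 3.66 and 1.59 times in WT. The DEN_WT libraries thus held the fewest constant region counts per Ighv count, and treatment and library depth cannot be told apart here.

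The leading kappa segments were Igkv1-110 (chr6:68220521-68221261, plus strand) and Igkv1-117 (chr6:68071085-68071821, plus strand), which belong to 1 family and are close copies. Their V exons have 313 bases and differ at 10 positions, an identity of 96.8%, whereas Igkv1-135, another abundant kappa segment by the mean over the groups, shares 80.2% and 79.6% with them. The 90 bases in which the first pair differs most (bases 96 to 185 of the V exon, from the same GENCODE transcripts) show how little sets them apart, with capitals at the 26 positions where the 3 segments are not all alike.
Igkv1-110: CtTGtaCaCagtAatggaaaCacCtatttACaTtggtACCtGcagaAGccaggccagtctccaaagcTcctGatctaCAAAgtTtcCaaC
Igkv1-117: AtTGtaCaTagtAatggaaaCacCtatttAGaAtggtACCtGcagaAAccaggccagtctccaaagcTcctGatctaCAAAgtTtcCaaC
Igkv1-135: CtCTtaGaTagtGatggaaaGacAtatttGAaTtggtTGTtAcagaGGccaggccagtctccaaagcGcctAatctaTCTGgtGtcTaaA
Of the 50-base windows of Igkv1-110 and Igkv1-117, 50.9% and 49.9% occur in another immunoglobulin gene, and how multiply aligned reads were treated is not given in the sources used here, so the split between the pair is uncertain. The median share was 23.4% over the 108 Ighv and 21.9% over the 102 Igkv members, so the same holds for most single V segments.

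Igkv1-117 held 42, 116, 97 and 39 normalised counts in PR-SET7_LOBE, 10 and 8 in DEN_WT and 12 and 20 in WT. It rose in PR-SET7_LOBE over DEN_WT by 2.63 ± 0.57 (SE) on the log2 scale (limma adjusted p = 0.0125), a call lost without either DEN_WT library (0.108 without replicate 1 and 0.185 without replicate 2), and did not pass against WT (1.95 ± 0.57; limma adjusted p = 0.154). Igkv1-110 held 57, 115, 107 and 35 in PR-SET7_LOBE, 19 and 18 in DEN_WT and 14 and 20 in WT, and passed in neither contrast (limma adjusted p = 0.143 against WT and 0.0545 against DEN_WT). The ratio of Igkv1-110 to Igkv1-117 was 1.36, 0.991, 1.10 and 0.897 in PR-SET7_LOBE, 1.90 and 2.25 in DEN_WT and 1.17 and 1.00 in WT. Igkv1-135 held 15, 43, 26 and 3 normalised counts in PR-SET7_LOBE, 4 and 5 in DEN_WT and 4 and 13 in WT, with overlapping groups.

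Igkv3-2 was the only variable segment that rose in PR-SET7_LOBE over WT in the filtered fit. It held 13, 17, 17 and 10 normalised counts in PR-SET7_LOBE, 4 and 2 in DEN_WT and 0 and 0 in WT. All PR-SET7_LOBE libraries lay above both other groups. In estimated CPM it was at least 9.93-fold higher in PR-SET7_LOBE than in WT, taking 3 reads over both WT libraries as the most that a count of 0 allows (limma adjusted p = 0.0463). The call was lost without either WT library (limma adjusted p = 0.188 without replicate 1 and 0.328 without replicate 2), without either DEN_WT library (0.143 and 0.137), and without PR-SET7_LOBE replicate 2 (0.110) or 3 (0.0961). The 9 segments of its family together made up 16.8%, 12.3%, 10.4% and 10.5% of Igkv counts in PR-SET7_LOBE, 7.91% and 12.1% in DEN_WT and 3.28% and 0.752% in WT.

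The counts of heavy chain V segments were spread over many members, and none of those tested passed in any contrast. The 3 with the highest mean level over the groups were Ighv5-9, Ighv5-6 and Ighv5-12. Ighv5-9 owed its place to 1 library: it held 2, 4, 10 and 2 normalised counts in PR-SET7_LOBE, 7 and 39 in DEN_WT and 0 and 3 in WT. At 39 it made up 17.4% of the Ighv counts of DEN_WT replicate 2, the highest share of a single Ighv segment in any of the 8 libraries. Ighv5-6 held 4, 12, 3 and 5 in PR-SET7_LOBE, 5 and 3 in DEN_WT and 8 and 16 in WT, and Ighv5-12 held 4, 12, 2 and 2 in PR-SET7_LOBE, 9 and 5 in DEN_WT and 6 and 14 in WT; both had their highest value in WT replicate 2. The leading segment differed from library to library: Ighv1-53, Ighv5-4 (level with Ighv1-61), Ighv7-3 and Ighv1-52 in PR-SET7_LOBE replicates 1 to 4, Ighv1-81 and Ighv5-9 in DEN_WT replicates 1 and 2, and Ighv5-4 (level with Ighv5-6) and Ighv5-6 in WT replicates 1 and 2. It took 6.61%, 3.17%, 6.63% and 4.41% of Ighv counts in PR-SET7_LOBE, 8.74% and 17.4% in DEN_WT and 6.90% and 9.88% in WT. Among kappa segments the leader was Igkv1-110 or Igkv1-117 in 7 libraries and Igkv12-44 in DEN_WT replicate 2, and its share was 15.97%, 14.6%, 12.3% and 13.3% in PR-SET7_LOBE, 10.7% and 7.42% in DEN_WT and 11.5% and 15.04% in WT.

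**Figure D3:**
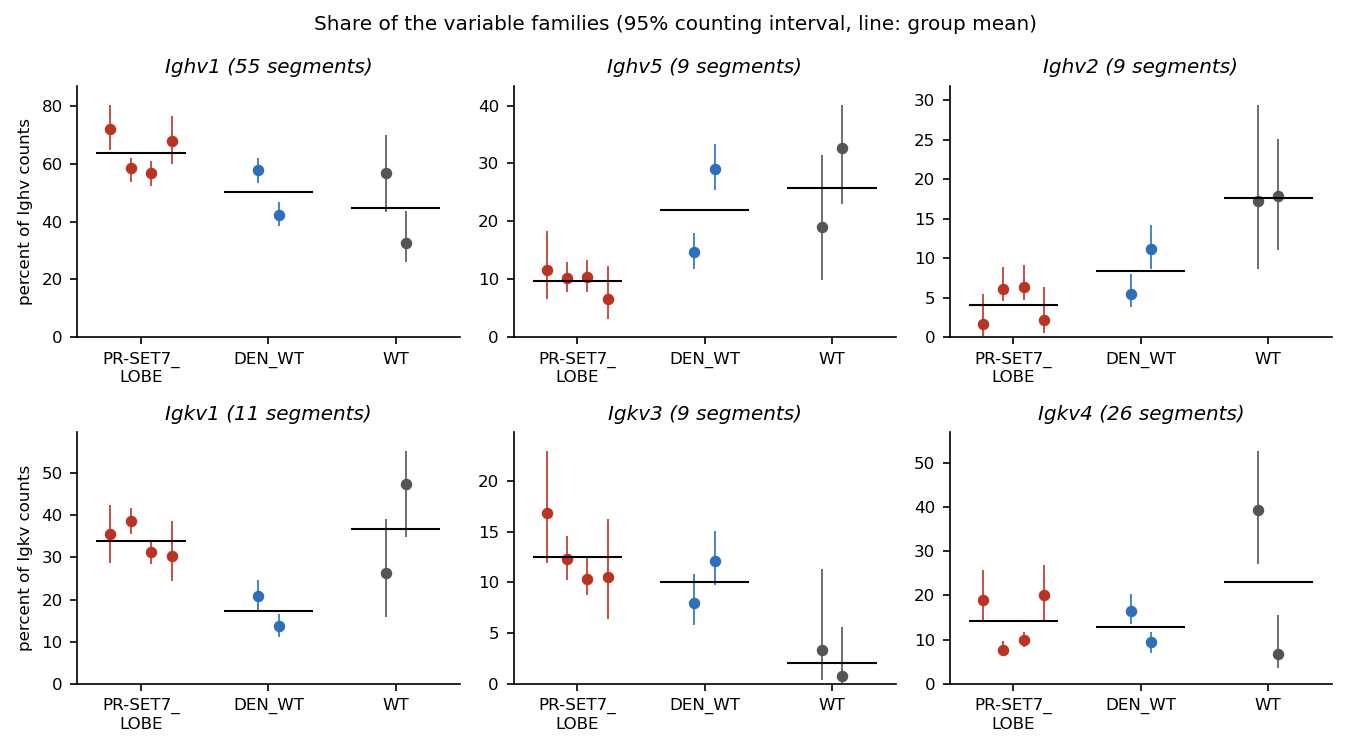
Share of 3 Ighv families in the Ighv counts and of 3 Igkv families in the Igkv counts (percent, vertical axes) in each library, with 95% counting intervals and a line at the group mean. Ighv5 lies at 6.61% to 11.6% in PR-SET7_LOBE, 14.8% and 29.0% in DEN_WT and 19.0% and 32.7% in WT, and Ighv2 shows the same order of group means.

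By family, PR-SET7_LOBE libraries held smaller shares of Ighv5 and of Ighv2 than WT libraries. All 9 members of each of these families are among the 54 Ighv members nearest to the constant genes, against 9 of the 55 members of Ighv1, the largest family. Not all families that lie wholly among these 54 shared that order: Ighv7 took 0.826%, 5.07%, 10.5% and 0.881% of Ighv counts in PR-SET7_LOBE, 1.64% and 5.36% in DEN_WT and 0% and 0.617% in WT, and Ighv6 took 0.826% to 5.29% in PR-SET7_LOBE, 1.09% and 1.79% in DEN_WT and 0% in both WT libraries. Ighv8, a family of 8 members with none among the 54, took 5.79%, 8.25%, 5.10% and 6.17% in PR-SET7_LOBE, 0.546% and 1.79% in DEN_WT and 1.72% and 0.617% in WT, without overlap between PR-SET7_LOBE and the others. These 3 families rest on few reads and were named after their values were seen. Ighv5 took 11.6%, 10.1%, 10.5% and 6.61% of Ighv counts in PR-SET7_LOBE, 14.8% and 29.0% in DEN_WT and 19.0% and 32.7% in WT, and the PR-SET7_LOBE values lay below all others. The counting interval of WT replicate 1, 9.87% to 31.4% on 11 Ighv5 reads, covered the shares of PR-SET7_LOBE replicates 1 to 3. Ighv2 took 1.65%, 6.13%, 6.38% and 2.20% in PR-SET7_LOBE, 5.46% and 11.2% in DEN_WT and 17.2% and 17.9% in WT, where the values of PR-SET7_LOBE overlapped with DEN_WT but not with WT. On 10 Ighv2 reads, the interval of WT replicate 1 ran from 8.59% to 29.4%. It overlapped those of PR-SET7_LOBE replicates 2 (4.56% to 8.82%) and 3 (4.64% to 9.16%). Ighv1 took 56.9% to 71.9% in PR-SET7_LOBE, 57.9% and 42.4% in DEN_WT and 56.9% and 32.7% in WT, so the groups overlapped. The 54 Ighv members nearest to the constant genes on chromosome 12 held 32.2%, 38.1%, 43.4% and 37.0% of Ighv counts in PR-SET7_LOBE, 50.3% and 65.6% in DEN_WT and 41.4% and 70.4% in WT; this grouping was chosen after the family values were seen. PR-SET7_LOBE replicate 3 lay above WT replicate 1, whose counting interval ran from 28.6% to 55.1% on 58 reads. Among kappa families, Igkv1 took 30.3% to 38.6% in PR-SET7_LOBE, 20.9% and 13.7% in DEN_WT and 26.2% and 47.4% in WT, so DEN_WT lay below the other groups.

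The number of segments seen in a library is given beside the reads of its locus. Of the 108 Ighv members, 56, 93, 90 and 60 had a value above 0 in PR-SET7_LOBE, on 130, 558, 512 and 134 estimated reads, 64 and 60 in DEN_WT on 517 and 536 reads, and 33 and 56 in WT on 58 and 122 reads. PR-SET7_LOBE replicates 2 and 3 and both DEN_WT libraries had similar numbers of reads, and fewer segments were seen in DEN_WT, where single reads are hidden. Thinned to 58 reads, the number in the poorest library, 36.7, 39.6, 39.0 and 39.4 Ighv segments were expected in PR-SET7_LOBE, 33.2 and 30.3 in DEN_WT and 33.0 and 35.3 in WT. The PR-SET7_LOBE values lay above all others. Leaving out the segments seen with 1 read in each library and thinning to 42 reads, they were 24.8, 31.1, 30.7 and 27.6 in PR-SET7_LOBE, 27.2 and 24.8 in DEN_WT and 17.0 and 19.9 in WT, and PR-SET7_LOBE then overlapped with DEN_WT, in which no segment has a value of 1 read to leave out. The effective number of Ighv segments, the exponential of the Shannon entropy, averaged 58.6 ± 12.3 (SD, n = 4) in PR-SET7_LOBE, 41.25 ± 7.04 (SD, n = 2) in DEN_WT and 34.7 ± 7.57 (SD, n = 2) in WT. It was not thinned and so also depends on the number of reads, and PR-SET7_LOBE replicate 1 (44.8) lay below DEN_WT replicate 1 (46.2).

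The thinned numbers of kappa segments did not separate the groups. Of the 102 Igkv members, 55, 88, 92 and 65 had a value above 0 in PR-SET7_LOBE, 55 and 50 in DEN_WT and 36 and 39 in WT. Thinned to 61 reads, 31.95, 31.6, 33.5 and 34.8 were expected in PR-SET7_LOBE, 31.8 and 29.1 in DEN_WT and 36.0 and 29.7 in WT, with all 3 groups overlapping. The effective number averaged 39.5 ± 5.50 (SD, n = 4) in PR-SET7_LOBE, 37.1 ± 3.07 (SD, n = 2) in DEN_WT and 26.8 ± 2.93 (SD, n = 2) in WT, where the index also depends on the 61 and 98 Igkv reads of the WT libraries. Only 6 Ighv and 7 Igkv members had a value above 0 in all 8 libraries, and the median of a member's highest value was 5 normalised counts for Ighv and 6 for Igkv.

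**Figure D4:**
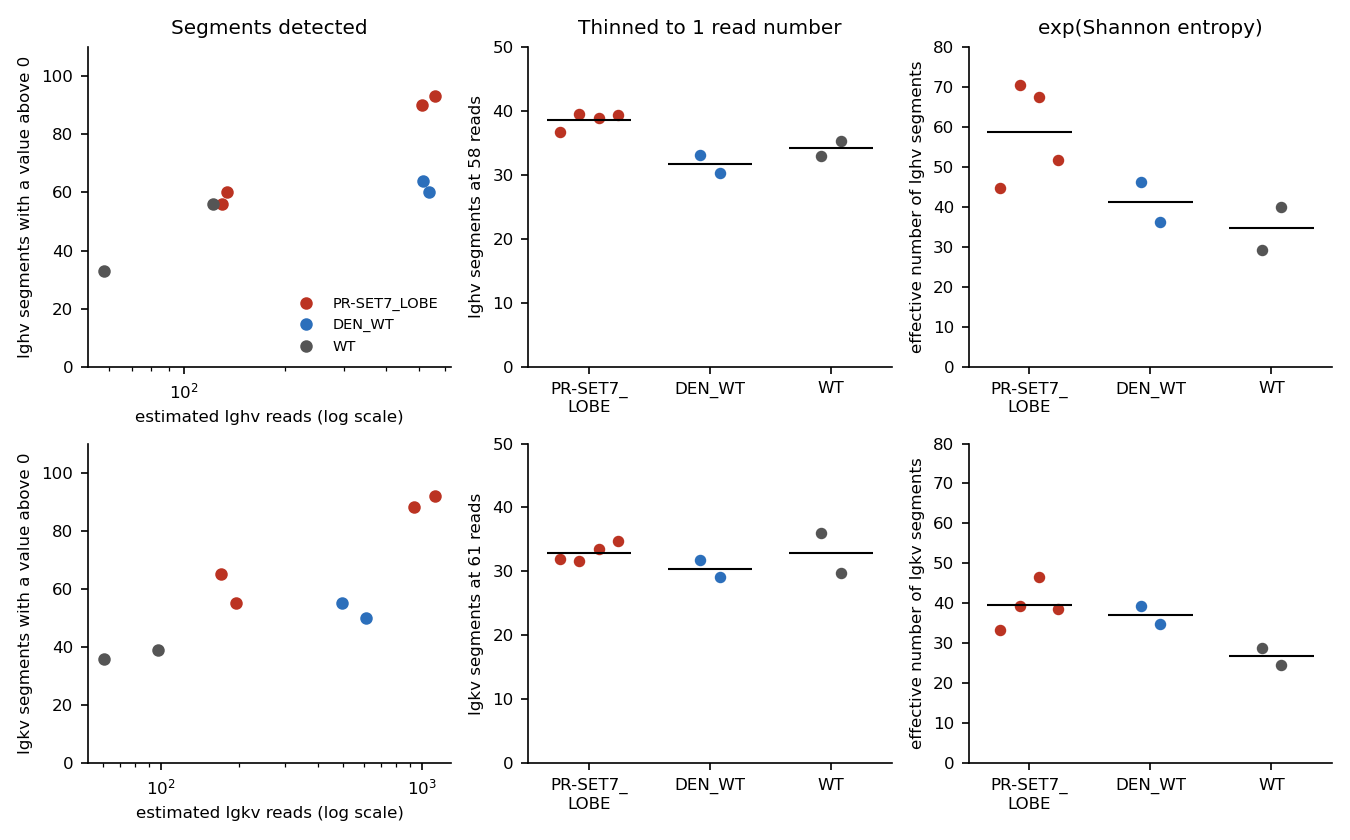
Ighv segments (top) and Igkv segments (bottom) in each library: the number with a value above 0 against the estimated reads of the locus on a log axis (left), the number expected when all libraries are thinned to 58 Ighv or 61 Igkv reads (middle), and the effective number from the Shannon entropy (right). Lines mark group means, and the thinned Ighv numbers of PR-SET7_LOBE, 36.7 to 39.6, lie above the 30.3 to 35.3 of the other groups, while the thinned Igkv numbers overlap.

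Genes of B cells and plasma cells were set beside the segments. Of the 19 tested genes of B cell surface and identity, none passed in PR-SET7_LOBE over WT by limma (17 log2 fold changes above 0, median 0.61 beside 0.03 over all 17011 genes tested). In DEN_WT over WT 2 fell, where 4.84% of all genes fell (median 0.12 beside 0.16). In PR-SET7_LOBE over DEN_WT 4 rose, where 5.26% of all genes rose (median 0.98 beside -0.04). The immunoglobulin coreceptor genes Cd79a and Cd79b, which B cells need to show and signal through their antibody, were higher in each PR-SET7_LOBE library than elsewhere. Cd79a held 24, 24, 18 and 22 normalised counts in PR-SET7_LOBE, 9 and 2 in DEN_WT and 6 and 4 in WT, and passed in no contrast (limma adjusted p = 0.183 against WT and 0.0609 against DEN_WT). Cd79b held 35, 25, 26 and 32 in PR-SET7_LOBE, 4 and 3 in DEN_WT and 2 and 6 in WT. It rose in PR-SET7_LOBE over DEN_WT (2.51 ± 0.53 on the log2 scale, SE; limma adjusted p = 0.0114) and did not pass against WT (2.46 ± 0.53; limma adjusted p = 0.0756). Ms4a1, which encodes the B cell surface protein CD20, was low and scattered and held 4, 8, 18 and 18 in PR-SET7_LOBE, 6 and 3 in DEN_WT and 2 and 0 in WT.

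Cd22 and Fcer2a, receptors known from B cells, followed another order. Fcer2a held 115, 190, 82 and 82 normalised counts in PR-SET7_LOBE, 5 and 1 in DEN_WT and 115 and 154 in WT, and Cd22 held 214, 151, 129 and 259 in PR-SET7_LOBE, 26 and 11 in DEN_WT and 275 and 336 in WT. Both fell in DEN_WT over WT (log2 fold change -4.88 ± 0.60 and -4.003 ± 0.51, SE; limma adjusted p = 0.00108 and 0.00120), while the immunoglobulin sums of DEN_WT and WT overlapped in normalised counts and were higher in DEN_WT in estimated CPM. The T cell genes Cd3d and Cd8b1 also fell in DEN_WT over WT, as 2 of 15 T and NK cell genes tested, where 4.84% of all genes fell. Of these 15, 9 had a log2 fold change above 0 in that contrast (median 0.37 beside 0.16 over all genes). Cd3e, Cd3g and Cd8a, named after their values were seen, did not pass there (log2 fold change -0.42, 1.70 and 0.42). In WT, Cd3e held 10 and 7 normalised counts, Cd3g 0 and 0 and Cd8a 4 and 7. Cd3d held 147, 65, 44 and 71 normalised counts in PR-SET7_LOBE, 4 and 3 in DEN_WT and 146 and 147 in WT. The summed B cell list, of whose 24 genes 20 to 24 had a value above 0 in a library, was 768 to 926 in PR-SET7_LOBE, 381 and 277 in DEN_WT and 666 and 687 in WT, and the immunoglobulin sum per unit of that list was 3.61, 4.97, 7.21 and 2.65 in PR-SET7_LOBE, 2.45 and 4.27 in DEN_WT and 1.5 and 0.991 in WT. Cd22 and Fcer2a held much of that list sum in WT and little of it in DEN_WT, so both the sum and the ratio depend on these genes. The part of the list in the immunoglobulin differences was not tested.

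Of 18 tested genes of plasma cells and secretion, none passed in PR-SET7_LOBE over WT by limma (10 above 0, median 0.27 beside 0.03). In DEN_WT over WT 3 rose and 1 fell, where 8.44% of all genes rose and 4.84% fell (median 0.86 beside 0.16). In PR-SET7_LOBE over DEN_WT 3 fell, where 7.75% of all genes fell (median 0.11 beside -0.04). Igj, the joining chain of IgM and IgA polymers, held 42, 138, 308 and 98 normalised counts in PR-SET7_LOBE, 82 and 106 in DEN_WT and 8 and 27 in WT. It was above WT in all libraries of both other groups, but passed in neither contrast (limma adjusted p = 0.111 in PR-SET7_LOBE over WT and 0.0738 in DEN_WT over WT). PR-SET7_LOBE replicate 3, which had the highest Igj, also had the highest Igkc. 2010001M09Rik (Mzb1), a chaperone of antibody secretion, held 9, 14, 4 and 10 in PR-SET7_LOBE, 5 and 5 in DEN_WT and 2 and 6 in WT, and Prdm1, the regulator of plasma cell fate, held 18, 35, 49 and 32 in PR-SET7_LOBE, 19 and 26 in DEN_WT and 20 and 6 in WT. Xbp1, the secretory stress factor that hepatocytes also express, held 2692, 2355, 2323 and 2928 in PR-SET7_LOBE, 7070 and 10249 in DEN_WT and 2488 and 3006 in WT. Xbp1 rose in DEN_WT over WT (1.64 ± 0.40; limma adjusted p = 0.0242) together with Fkbp11, an endoplasmic reticulum isomerase (2.36 ± 0.65; 0.0392), and Ell2, an elongation factor used in antibody secretion (1.397 ± 0.36; 0.0304), and all 3 fell in PR-SET7_LOBE over DEN_WT (limma adjusted p = 0.00817, 0.0472 and 0.00458). Eaf2, an elongation cofactor, fell in DEN_WT over WT (-3.88 ± 0.75; limma adjusted p = 0.00796). Sdc1, which encodes the plasma cell marker CD138 and is a hepatocyte surface proteoglycan, held 8829, 2101, 2494 and 2724 in PR-SET7_LOBE, 3602 and 4246 in DEN_WT and 12500 and 5343 in WT.

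**Figure D5:**
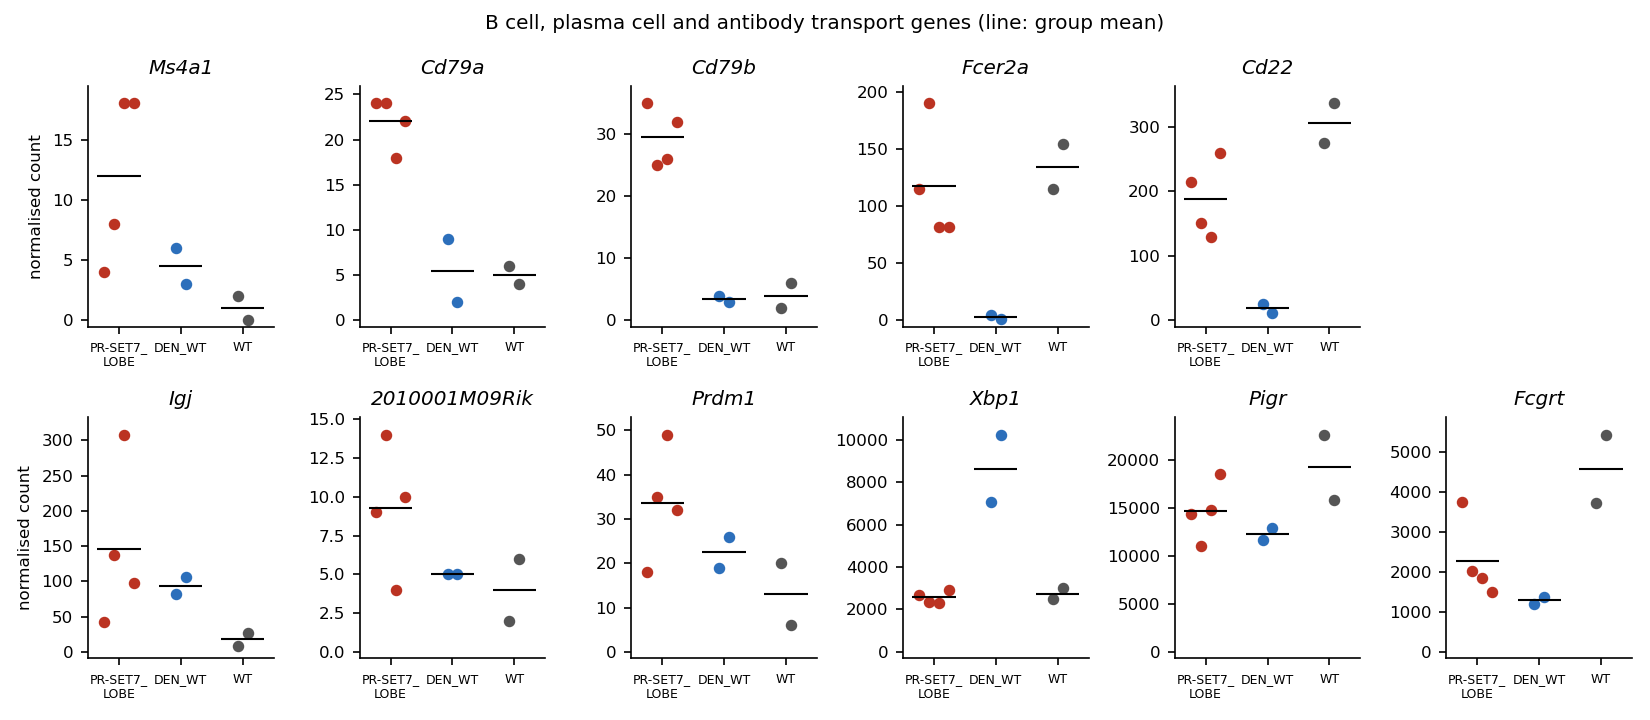
Normalised counts (vertical axes, 1 scale per gene) of 5 B cell genes (top) and of 6 plasma cell and antibody transport genes (bottom) in each library, with a line at the group mean. Cd79b is at 25 to 35 in PR-SET7_LOBE and at 6 or below elsewhere, Fcer2a and Cd22 are low in DEN_WT, and Xbp1 is high in DEN_WT at 7070 and 10249.

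Of 10 tested antibody receptor and transport genes, Fcgrt, the neonatal Fc receptor that recycles IgG, alone passed. It held 3742, 2028, 1842 and 1488 normalised counts in PR-SET7_LOBE, 1201 and 1374 in DEN_WT and 3719 and 5419 in WT. Fcgrt fell in DEN_WT over WT (-1.80 ± 0.49; limma adjusted p = 0.0356), where 4.84% of all genes fell. Pigr, the epithelial receptor that carries IgA and IgM into bile, held 14430, 11065, 14834 and 18610 in PR-SET7_LOBE, 11679 and 12980 in DEN_WT and 22664 and 15855 in WT. Of 13 tested genes of plasma cell survival, homing and B cell help, 1 rose in PR-SET7_LOBE over WT, where 0.594% of all genes rose. In DEN_WT over WT 3 rose and 1 fell, where 8.44% of all genes rose and 4.84% fell (median log2 fold change 0.72 beside 0.16 over all genes). In PR-SET7_LOBE over DEN_WT 1 rose and 1 fell, where 5.26% of all genes rose and 7.75% fell. Cxcr4, the chemokine receptor of many leukocytes, rose in PR-SET7_LOBE over WT (3.58 ± 0.51; limma adjusted p = 0.0173) and in DEN_WT over WT (3.51 ± 0.59; 0.00458), contrasts that share the same WT libraries. Cxcr4 held 40, 55, 44 and 104 in PR-SET7_LOBE, 55 and 53 in DEN_WT and 2 and 4 in WT. Tnfsf13, which encodes the plasma cell survival factor APRIL, held 13, 10, 11 and 5 in PR-SET7_LOBE, 66 and 106 in DEN_WT and 14 and 1 in WT, rose in DEN_WT over WT (3.63 ± 0.81; limma adjusted p = 0.0167) and fell in PR-SET7_LOBE over DEN_WT (-2.92 ± 0.70; 0.0207). Il21, a cytokine of helper T cells, held 13, 17, 11 and 25 in PR-SET7_LOBE, 1 and 1 in DEN_WT and 14 and 14 in WT, fell in DEN_WT over WT (-2.42 ± 0.63; limma adjusted p = 0.0314) and rose in PR-SET7_LOBE over DEN_WT (2.57 ± 0.55; 0.0113). Cd40, the receptor through which helper T cells stimulate B cells, held 29, 36, 16 and 10 in PR-SET7_LOBE, 27 and 41 in DEN_WT and 6 and 3 in WT, and rose in DEN_WT over WT (2.48 ± 0.69; limma adjusted p = 0.0409). No hepatocyte gene of the 9 tested passed in any contrast by limma. Of the 9, 2 had a log2 fold change above 0 in PR-SET7_LOBE over WT (median -0.63 beside 0.03 over all genes). In PR-SET7_LOBE over DEN_WT it was 1 (median -0.96 beside -0.04), and in DEN_WT over WT 5 (median 0.06 beside 0.16). Their summed level, 553161 to 1774445 normalised counts in PR-SET7_LOBE, overlapped with 1501366 and 1880064 in DEN_WT and 1168674 and 1574824 in WT. Of the calls in this and the 3 preceding paragraphs, those of Fcer2a, Cd22 and Cd3d held without any 1 library. Those of all other genes in contrasts with DEN_WT were lost without either DEN_WT library, except that of Eaf2. The Eaf2 call was lost without DEN_WT replicate 2 or WT replicate 2. In DEN_WT over WT, the calls of Xbp1, Ell2, Fkbp11, Fcgrt, Il21 and Cd40 were also lost without either WT library. That of Tnfsf13 was also lost without WT replicate 2. Those of Cd40, Fcgrt and Fkbp11 were also lost without PR-SET7_LOBE replicate 3, 2 and 4, respectively. In PR-SET7_LOBE over DEN_WT, the Fkbp11 call held only without PR-SET7_LOBE replicate 2. The call of Cxcr4 in PR-SET7_LOBE over WT was lost without PR-SET7_LOBE replicate 2 (0.0632) or WT replicate 1 (0.143) or 2 (0.152).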

How the data were processed

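Liver mRNA was selected with oligo(dT) beads, made into Ion Torrent libraries and read on an Ion Proton, per the labels' protocols. TopHat2 2.0.9, Cufflinks, DESeq and the mm9 build were used, per the submitters' processing notes. Not given in the sources used here are the counting tool, the strand setting and how multiply aligned reads were treated. The deposited values are whole-number normalised counts (a signal scaled per library), not raw counts: the authors' values in each library are reads times 1 factor, rounded. In WT replicate 1, for example, the fitted factor of 2.021 per read can produce only 49.3% of the whole numbers up to 300. Of its values up to 300, 99.8% lie on those numbers. Other factors ran from 0.3617 to 1.8328. The tables of the single libraries are identical to the series table in 8 of 8 libraries. The edgeR test planned for raw counts was therefore replaced by limma 3.58.1 (trend, robust) on log2(value + 2), with all 8 libraries, the group as the only term and genes with a value of 10 or more in at least 2 libraries. edgeR 4.0.16 on estimated reads (value divided by factor, rounded) called 43 genes in PR-SET7_LOBE over WT, 2044 in DEN_WT over WT and 2389 in PR-SET7_LOBE over DEN_WT; DESeq2 1.42.0 and limma voom were also run on them. Steps were tested on simulated data.

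Shares have exact Clopper-Pearson 95% intervals on estimated reads, and diversity was computed with scipy 1.17.1 and analytic thinning. Sums, shares and diversity were given no p. Named are every constant region row, the 3 highest V segments of each locus, the leading segment of each library, members that passed, up to 4 genes of each context list by adjusted p, and a fixed set (Ms4a1, Cd79a, Igj, 2010001M09Rik, Sdc1, Prdm1, Xbp1, Pigr, Fcgrt); some genes of these lists are not reported here. The members and lists were chosen with earlier results of these data known. Hinge and V exon sequences come from GENCODE M21 transcripts matched by symbol, and no coordinates of that build were used. 1 member, Igkv4-55, overlaps a gene on the other strand.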

Additional observations from a re-analysis of the deposited data

Results flagged for a closer look

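In groups of 4 libraries a value was set apart when its gap to the nearest other value was larger, relative to the group's range, than Dixon's 95% limit. Chance passes this in about 1 in 20 groups, and 4 of 40 PR-SET7_LOBE sets did, of which the last 2 share a gene. Ighm held 1173 normalised counts in PR-SET7_LOBE replicate 2, far above 319, 243 and 346 in replicates 1, 3 and 4. Igkc held 3034 in replicate 3, against 1037, 1250 and 1135 in the others. Iglc2 held 97 in replicate 2, against 15, 20 and 22 in the others. The lambda constant sum of replicate 2 was therefore also apart, at 107, against 20, 22 and 24.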

How the results depend on the processing

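Whether the labels' replicate numbers pair the libraries was not settled. Correlations of same-numbered libraries ran from -0.011 to 0.158, but without those of differently numbered libraries beside them they cannot decide it. A replicate block, to which PR-SET7_LOBE replicates 3 and 4 add nothing, gave 6 members called in PR-SET7_LOBE over WT (1.49% of all genes). It gave 2 in DEN_WT over WT (21.5%) and 10 in PR-SET7_LOBE over DEN_WT (18.8%). Percentages after a count of members are the share of all genes called in the same fit. In PR-SET7_LOBE over WT, 3 members were called in the main analysis (0.776%), 8 by DESeq2 (4.81%), 1 by edgeR (0.253%) and 1 with a pseudocount of 8 (0.382%), and from 0 (0.0237%, without WT replicate 2) to 9 (16.7%, without PR-SET7_LOBE replicate 1) with 1 library left out. In DEN_WT over WT the 0 calls became 1 with DESeq2 (19.8%) and 2 (1 higher, 1 lower; 39.1%) with only these 2 groups, and 0 to 1 (13.9%, without PR-SET7_LOBE replicate 4) with 1 library left out. In PR-SET7_LOBE over DEN_WT the 4 calls became 11 with DESeq2 (20.1%), 14 with limma voom (13 higher, 1 lower; 30.9%) and 7 with edgeR (14.0%), and 1 (3.17% without DEN_WT replicate 1, 2.37% without replicate 2) to 6 (18.3% without PR-SET7_LOBE replicate 1, 12.8% without replicate 4) with 1 library left out. The edgeR, TMM and pseudocount alternatives and the omission of segments with 1 read were chosen after seeing the data. Without 1 library a group can be left with a single library, which is then assumed to vary like the others. Ighg2c was called against DEN_WT in all 19 alternatives and against WT in 18. Igkv1-117 was called against DEN_WT in 17, Igkc in 13 and Ighg3 in 10, and against WT Igkc was called in 12 and Igkv3-2 in 10. Upper-quartile scaling moved the median log2 fold change of all genes in PR-SET7_LOBE over WT to 0.19, against 0.03.

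Of 623 alternative values of named members, 529 kept direction and call, 51 gained and 34 lost a call, and 9 turned round. These 9 were Ighg1 in DEN_WT over WT without WT replicate 1 (range with 1 library left out -3.696 to 1.904), Ighg2b without WT replicate 2 (-0.917 to 3.476), Iglc2 with limma voom (0.163), a pseudocount of 0.5 (0.424), and without WT replicate 1 or DEN_WT replicate 1 (-1.515 to 1.292), Igkv1-110 with limma voom (-0.013) and without WT replicate 1 (-0.102 to 0.357), all in the same contrast, and Iglv1 in PR-SET7_LOBE over DEN_WT without PR-SET7_LOBE replicate 2 (-0.061 to 1.062). The cause was not tested.

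From 3 reads on, Ighv segments detected averaged 46, 53 and 9.5 in PR-SET7_LOBE, DEN_WT and WT and Igkv segments 47, 48 and 6, against 74.75, 62 and 44.5 and 75, 52.5 and 37.5 from 1 read on; in DEN_WT the first limit follows from rounding, since a value of 1 becomes 3 reads in replicate 1 and 2 reads in replicate 2, so no comparison with DEN_WT is drawn from it. The inverse Simpson index of Igkv was 20.75, 27.7 and 18.8, and of Ighv 26.99 in DEN_WT. Without segments of 1 read the effective number was 32.17 for Igkv in PR-SET7_LOBE and 12.61 and 18.14 for Igkv and Ighv in WT. Constant regions alone summed to 615 in DEN_WT and 572 in WT, and the IgG share per kilobase was 32.28% in DEN_WT. With 58 to 122 V reads per locus in WT libraries, depth limits what is said of their segments.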

Other observations

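The heavy chain joining (J) segments, which are not members, were highest in DEN_WT. Ighj1 to Ighj4 summed to 2, 2, 17 and 21 normalised counts in PR-SET7_LOBE, 35 and 67 in DEN_WT and 0 and 1 in WT. Ighj4 held 0, 1, 6 and 3 in PR-SET7_LOBE, 19 and 29 in DEN_WT and 0 and 0 in WT, and Ighj1 held 2, 1, 2 and 0 in PR-SET7_LOBE, 10 and 23 in DEN_WT and 0 and 1 in WT. In estimated reads the sums were 1, 2, 23 and 13 in PR-SET7_LOBE, 98 and 161 in DEN_WT and 0 and 1 in WT. These rows were looked at after the members' values were seen and were not tested. The DEN_WT libraries were also the deepest, so treatment and depth cannot be told apart here.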
